A study of Aedes aegypti with 3 samples.

Results

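Chromosome 2 is the longest of the *Aedes aegypti* chromosomes, and the regions described here are its FAIRE peaks, the places where open chromatin was called on it. They were chosen as every peak that the AaegL5 list assigns to chromosome 2, which gave 52886 of the 128307 peaks in the list, or 41.2%. The embryos were wild type, of strain Liverpool-IB12 (LVP-IB12), and were taken whole, male and female together, at 49 to 51 h after egg laying. There was 1 group, with no treatment and no control sample. Its 3 biological replicates were pooled by the authors before peaks were called, so the list holds 1 value per peak, no spread between replicates can be given, and the depth per replicate is not in the list. Intervals and p-values below cover counting error only, and neighbouring peaks are not independent of each other.

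FAIRE separates sheared, formaldehyde-crosslinked chromatin by phenol-chloroform extraction, and DNA that is free of nucleosomes stays in the aqueous phase. Peaks of such DNA mark promoters, enhancers and other cis-regulatory elements. In a whole embryo they are a sum over all tissues, and a peak that is weak in the sum may be strong in few cells or weak in many, which cannot be told apart here. The chromosomes of *A. aegypti* are large, rich in repeats and metacentric, with the centromere near the middle and a telomere at either end. The files used here do not give the position of the centromere, so the middle is the middle by length.

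In the list as given for AaegL5 the digit 3 never occurs and every 3 reads as a 5. Each 5 was therefore read as a 3 or a 5 such that peaks stayed in order and of plausible width. A single reading was left for 24.7% of chromosome 2 peaks, with the start uncertain by no more than 25 bp in 74.98% and by no more than 2500 bp in 98.6% of cases. Values that depend on exact positions are means over 20 random readings. Positions are printed 1-based on AaegL5, mostly in Mb.

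Chromosome 2 peaks had a width of 1143 ± 567 bp (SD across peaks) and a median width of 974 bp, and covered 60.5 Mb, or 12.7% of a length of 474.4 Mb. The density was 111.5 peaks per Mb. It was 1.17-fold that of chromosome 1 (95% interval 1.15 to 1.19, exact binomial test, adjusted p = 4.4e-103) and 1.03-fold that of chromosome 3 (1.02 to 1.04, adjusted p = 1.9e-05). Peak strength is given as the −log10 p that the peak caller assigned. The median was 7.52, 5% of the peaks lay at 3.93 or below, 5% lay at 23.5 or above, and the strongest peak reached 198.0. Strong peaks are those in the strongest decile of the whole list, with a −log10 p of at least 17.4, a rule that takes 10.0% of all peaks. On chromosome 2 they numbered 4881, or 9.23%, against 10.8% on chromosome 1 (Fisher's exact test, adjusted p = 1.2e-12) and 10.1% on chromosome 3 (adjusted p = 1.0e-05). Chromosome 2 was thus denser in peaks than either, with a smaller share of strong ones.

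Open chromatin was densest in the middle of the chromosome. The middle, from 40 to 60% of the length, held 12161 peaks, or 128.2 per Mb. The ends, the outermost 10% of the length on either side and together as long, held 9312 peaks, or 98.1 per Mb. The ratio was 1.31 (1.27 to 1.34, two-sided exact binomial test, p = 2.2e-84). Peaks covered 14.9% of the middle and 11.2% of the ends. Between these the density by distance from the nearer end was 106.2 peaks per Mb from 10 to 20% of the length, 104.2 from 20 to 30% and 120.7 from 30 to 40%. The largest step between neighbouring classes lay at 30% of the length from an end.

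The rise differed between the sides. Counted in steps of 10% from the start of the chromosome, the density was 102.7, 95.8, 99.9, 124.4 and 131.6 peaks per Mb up to the midpoint. Beyond it the density was 124.8, 116.9, 108.5, 116.5 and 93.6 peaks per Mb. The lowest value was that of the last step, and the highest that of the step just before the midpoint. As wholes the sides hardly differed, with 110.9 peaks per Mb before the midpoint (109.5 to 112.2) and 112.1 after it (110.7 to 113.4).

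**Figure D1:**
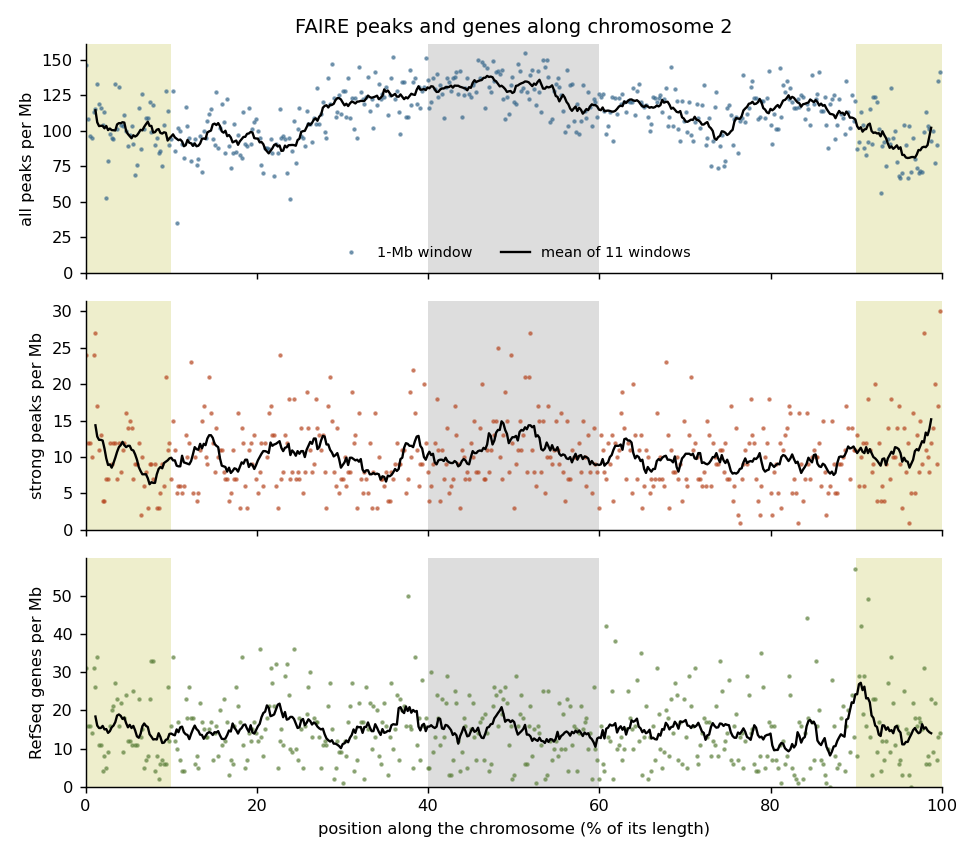
All peaks, strong peaks and RefSeq genes per Mb (y axes) in 1-Mb windows along chromosome 2 (x axis, percent of its length), with dots for windows, lines for the mean of 11 windows, grey for the middle and yellow for the ends. All peaks are densest in the middle, at 128.2 per Mb against 98.1 at the ends, while strong peaks stand at 10.99 and 10.93 per Mb.

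The gradient was not seen in the strongest peaks. Strong peaks stood at 10.99 per Mb in the middle and 10.93 per Mb at the ends, a ratio of 1.006 (0.92 to 1.10, p = 0.913, exact binomial test, chosen after the values of all peaks were seen). Their share was therefore lower in the middle, at 1043 of 12161 peaks or 8.58% (8.08 to 9.09%), than at the ends, at 1037 of 9312 peaks or 11.1% (10.5 to 11.8%, Fisher's exact test, p = 4.2e-10). When the peaks of chromosome 2 were split into deciles by strength, the weakest decile was 1.66-fold denser in the middle than at the ends (1.52 to 1.82). The ratio was 1.25 (1.15 to 1.37) in the 5th decile and 1.36 (1.25 to 1.48) in the 8th. It was 1.14 (1.05 to 1.24) in the 9th and 0.99 (0.91 to 1.08) in the strongest. The decline with strength was not smooth, since the 6th decile had a ratio of 1.17 (1.07 to 1.27), below those of the 7th and 8th.

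**Figure D2:**
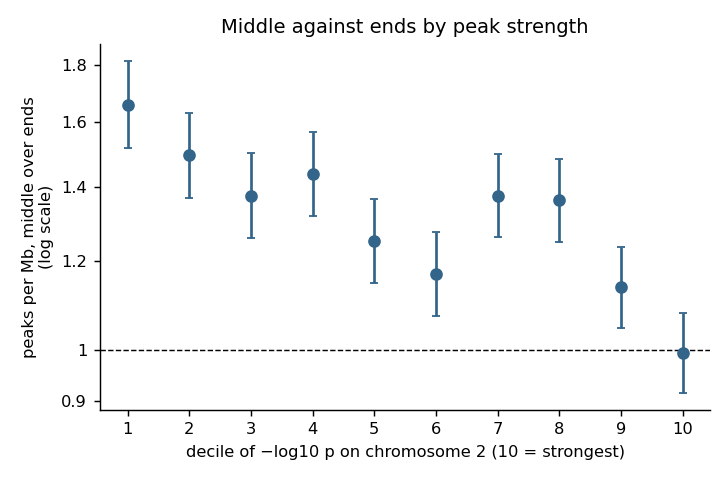
Ratio of peak density in the middle to that at the ends (y axis, log scale, with 95% intervals) for chromosome 2 peaks in 10 groups of rising −log10 p (x axis). The ratio is 1.66 for the weakest decile of peaks and 0.99 for the strongest, and the dashed line marks equal density.

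The ends were not uniform either. The outermost 2% of the length from each end carried 111.0 peaks per Mb (106.3 to 115.8), whereas the next 2% carried 89.8 (85.6 to 94.2), the lowest of all 2% classes. The outermost 2% also had the highest share of strong peaks of these classes, 14.1% (12.6 to 15.6%), against 6.48% (5.51 to 7.55%) at 34 to 36% of the length from an end. In absolute terms they had 15.6 strong peaks per Mb, more than the 14.0 per Mb of the 2% classes next to the midpoint. The 1-Mb window with most strong peaks on the chromosome lay from 473 to 474 Mb, with 30 strong peaks of 141, and the first Mb held 24 strong peaks of 146. The far end had 12.2% strong peaks (11.2 to 13.2%) and the end at the start 10.2% (9.35 to 11.1%). The lower share in the middle was seen against each end.

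The first peak started at base 1641 with a −log10 p of 6.05. The last ended 1868 bp before the end of the last gene, which is the end of the chromosome as measured here, since the length of the assembled sequence was not used. With a −log10 p of 120.4 it ranked 11th of all chromosome 2 peaks. It lay 511 bp from LOC110677260, a lncRNA gene at 474423482 to 474424839.

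Chromosome 1 had a steeper gradient and chromosome 3 a similar one. Chromosome 1 rose from 77.7 peaks per Mb at its ends to 122.6 in its middle, a ratio of 1.58. This differed from the 1.31 of chromosome 2 (Fisher's exact test of the counts, adjusted p = 2.4e-16). Chromosome 3 rose from 101.02 to 128.6 peaks per Mb, a ratio of 1.27, and the difference from chromosome 2 did not pass Fisher's exact test (adjusted p = 0.205). These tests were chosen after the values were seen. In the middle the chromosomes lay between 122.6 and 128.6 peaks per Mb, and at the ends between 77.7 and 101.02. The share of strong peaks in the outermost 2% was 17.4% on chromosome 1 and 14.8% on chromosome 3, and on chromosome 3 the outermost 2% was not denser than the next 2% (100.5 and 111.3 peaks per Mb).

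**Figure D3:**
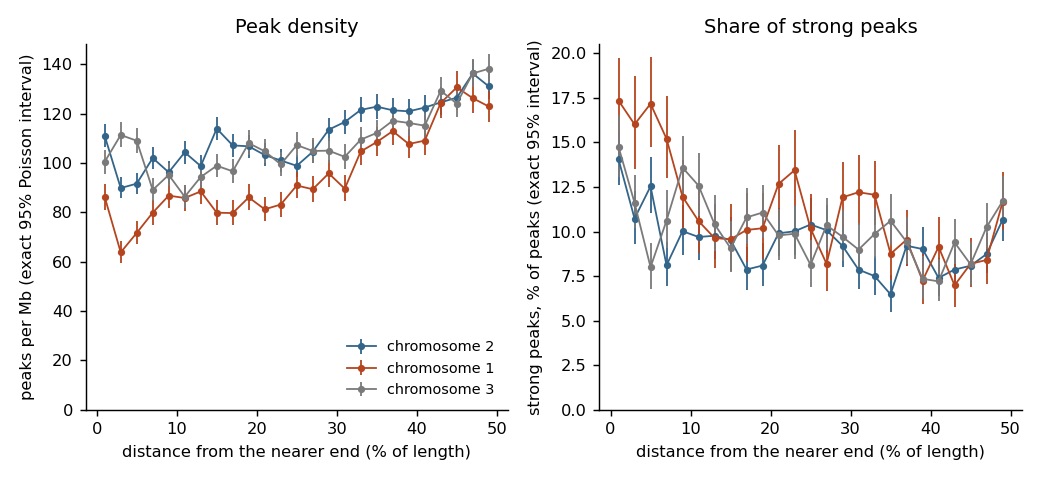
Peak density (left, peaks per Mb with exact 95% Poisson intervals) and share of strong peaks (right, percent of peaks with exact 95% binomial intervals) against distance from the nearer chromosome end (x axes, percent of length) in classes of 2%. Chromosome 2, in blue, has 111.0 peaks per Mb in the outermost class and 131.1 next to the midpoint, and its share of strong peaks is highest, at 14.1%, in the outermost class.

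Genes did not follow this gradient. RefSeq genes stood at 15.8 per Mb at the ends and 14.5 per Mb in the middle, and protein-coding genes at 12.3 and 10.5 per Mb. Over the 474 full 1-Mb windows, the number of peaks and the number of genes had a Pearson r of 0.12 and a Spearman rho of 0.13. Strong peaks and genes had an r of 0.38 and a rho of 0.44. Adjacent windows are not independent, and these values only describe the chromosome. The excess of the middle was found within and between genes. Inside gene spans (exons and introns together, all gene classes) the density was 132.6 peaks per Mb in the middle and 106.5 at the ends, a ratio of 1.24 (1.203 to 1.287). Outside them it was 121.6 and 85.0 peaks per Mb, a ratio of 1.43 (1.367 to 1.498). Gene spans took up 60.0% of the middle and 61.1% of the ends.

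Peaks were spaced by a median of 5858 bp from the end of a peak to the start of the next, with a mean of 7827 bp. The coefficient of variation was 1.06. Gaps of at most 1 kb made up 13.6%, those of at most 2 kb 21.2%, of at most 5 kb 42.3% and of at most 10 kb 74.9%. On a log scale of length the count of gaps thus climbed slowly up to about 4 kb and steeply beyond it, in the middle and at the ends alike. Gaps over 20 kb made up few of all gaps, 3349 in number, but 22.1% of the length of the chromosome. Neighbouring gaps were nearly unrelated in length, with a Pearson r of −0.06 between their logarithms over 52884 pairs. In the middle the median gap was 5188 bp and at the ends 6632 bp. Long gaps differed more, since gaps over 20 kb were 3.92% of gaps in the middle and 8.99% at the ends.

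**Figure D4:**
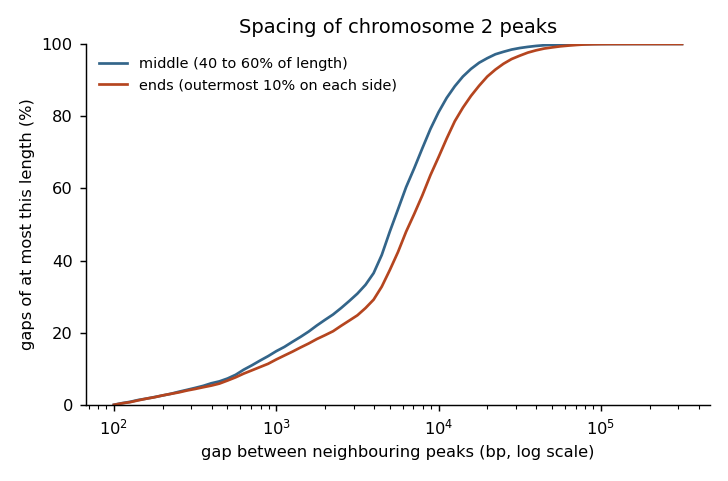
Share of gaps (y axis, percent) that are no longer than a given length (x axis, bp, log scale) for neighbouring chromosome 2 peaks in the middle and at the ends. The curve of the middle lies to the left, with a median of 5188 bp against 6632 bp.

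Counted in 1-Mb windows, chromosome 2 ranged from 35 to 155 peaks, with a median of 113 and a ratio of variance to mean of 3.54. Windows with fewer than 75 peaks numbered 20, none of them in the middle, where the lowest of 95 windows held 98. Of the 8 windows with most peaks, from 148 to 155, 6 lay in the middle. The richest lay from 243 to 244 Mb, at 51.3% of the length, with 155 peaks of which 21 were strong, and it held 6 genes. The poorest lay from 50 to 51 Mb, at 10.6% of the length, with 35 peaks and 10 genes. Thin windows also came in runs, as from 450 to 453 Mb, with 68, 67 and 70 peaks, and from 460 to 464 Mb, with 74, 70, 72 and 71.

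Dense clusters were rare and short. Runs of at least 5 peaks with at most 2 kb between neighbours numbered 10.95 on average (9 to 13 over the 20 readings), and none had more than 5 peaks. They held 0.10% of the peaks, and 6.05 of them on average lay in the middle. Chromosome 1 had 4 such clusters and chromosome 3 had 9. The cluster at 466.53 Mb was the tightest of those present in all 20 readings, with 5 peaks in 5.64 kb, and it lay 15323 bp from LOC110676125, a lncRNA gene. Others present in all readings lay within LOC5575064 at 172.19 Mb and LOC5571145 at 241.04 Mb, both protein-coding, across an end of LOC5571944 at 246.56 Mb, and 48689 bp from LOC5564164 at 255.31 Mb. Another, at 155.79 Mb, spanned the whole of LOC5577968. With up to 4 kb between neighbours the longest run lay at 342.88 Mb, at 72.3% of the length. It held 10 to 14 peaks in 23.5 to 38.0 kb, none of them above a −log10 p of 13.9, and took in the short protein-coding gene LOC5569024. LOC5579212, also short and protein-coding, lay inside it only where the run was read as longer.

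Peaks in close runs were weaker. Runs of at least 3 peaks with at most 2 kb between neighbours held 7.56% of the peaks, and 3.94% of these were strong, against 9.23% of all chromosome 2 peaks. From the weakest to the strongest decile of peaks, the median distance to the nearer neighbour went from 2174 to 4625 bp while the median width went from 676 to 1499 bp. Strong peaks nevertheless followed each other. After a strong peak the next peak was strong in 17.5% of cases, and after another peak in 8.39%. Width moved together with strength and distance, and its part in these values was not tested. Without a control sample, strength is also measured against a background of nearby reads, which close neighbours share. The part of that background was not tested either.

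Deserts, gaps of at least 100 kb with no peak, numbered 13 on chromosome 2 (11 to 14 over the readings) and took up 1.603 Mb. Under every allowed reading 10 gaps were this long, and no more than 18 could be. Chromosome 1, which is shorter, had 64.9 (62 to 67) and chromosome 3 had 43.2 (41 to 45). Per length, chromosome 2 had 0.13-fold as many as chromosome 1 (0.07 to 0.24, exact binomial test, adjusted p = 5.9e-15) and 0.26-fold as many as chromosome 3 (0.13 to 0.49, adjusted p = 5.2e-06). The longest gap of chromosome 2 was also the shortest of the longest gaps, at 202 to 274 kb over the readings against 440.0 to 467 kb on chromosome 1 and 578 to 598 kb on chromosome 3. For gaps of at least 50 kb under every reading, the ratio to chromosome 1 was 0.41 (0.35 to 0.49, adjusted p = 2.0e-28), and that to chromosome 3 was 0.84 (0.71 to 1.008, adjusted p = 0.061, exact binomial tests). The shortfall against chromosome 3 thus passed the test for deserts and not for these shorter gaps. The tests on deserts were chosen after the values were seen.

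The longest gap of chromosome 2 lay between 50.26 and 50.60 Mb, at 10.6% of the length, inside the window with fewest peaks. It was the longest gap in all 20 readings, although its limits within this stretch could not be settled. The stretch holds the protein-coding genes LOC5565714 (50446057 to 50485208) and LOC110676784 (50471302 to 50472998) and the lncRNA gene LOC110675528. The other deserts lay between 3.21 and 95.1% of the length, some of them inside long genes. One of 122.6 kb, at 451.06 to 451.18 Mb, lay within LOC5564933, a protein-coding gene of 450913775 to 451567079. Another of 115 kb, at 97.91 to 98.03 Mb, lay within LOC5573660 (97768743 to 98258185). The desert at 241.85 to 241.98 Mb, of 127 kb or more, lay at 51.0% of the length, in the part of the chromosome densest in peaks. It held LOC110675595, a lncRNA gene, and LOC5568634, a protein-coding gene, and reached into LOC5571158 and LOC5568632. One at 104.52 to 104.64 Mb held 4 genes, LOC5564962 and 3 lncRNA genes, and was bordered by a strong peak with a −log10 p of 36.6. A desert at 443.55 to 443.65 Mb reached into LOC5572370, and one at 329.91 to 330.01 Mb reached into LOC110675200 and LOC110676782, the latter a lncRNA gene.

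Gaps of at least 50 kb were common enough to be counted by position. Those that held under every reading numbered 250, of which 78 or 31.2% lay at the ends and 24 or 9.6% in the middle. In steps of 10%, the last had most, 46, and the one just before the midpoint fewest, 5. Together these gaps took up 3.45% of the length. Gene spans made up 52.2% of them, against 57.7% of the chromosome. Midpoints of protein-coding genes stood at 9.54 per Mb in them, against 11.5 per Mb on the chromosome. Those of all genes stood at 13.5 against 15.1 per Mb. These gaps were thus poorer in genes by either measure. They held 148 genes whole, namely 90 protein-coding genes, 44 lncRNA genes, 12 pseudogenes and 2 tRNA genes. Peaks bordering them were strong in 12.0% of cases, against 9.23% of all chromosome 2 peaks. The share of strong peaks also differed by position, with 11.1% at the ends and 8.58% in the middle. The part of position in the value for bordering peaks was not tested.

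The 20 strongest peaks stood mostly outside genes and often near the ends. Of these, all with a −log10 p above 100, 9 lay at the ends and 4 in the middle. Of all 52886 chromosome 2 peaks, 9312 lay at the ends and 12161 in the middle. The strongest lay at 464420290 to 464422213 with a −log10 p of 198.0, at 97.9% of the length and 6155 bp from LOC5568195, a protein-coding gene. The 4th, with 154.7, was the next peak after it, 11309 bp on and 10351 bp from LOC5579520. The second, with 183.1, lay at 225013101 to 225014934, near the middle, 46999 bp from LOC5574832. The third, with 155.9, lay at 247.21 Mb and 53900 bp from LOC5571949. The 5th, with 151.5, lay at 57.79 Mb and 7734 bp from LOC5569214. Of these 5 peaks, those ranked 1st and 4th were neighbours at the far end, those ranked 2nd and 3rd lay in the middle, and the 5th lay in neither.

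A second close pair lay before LOC5564933, the gene that contains the desert of 122.6 kb. These peaks ranked 6th and 7th, with a −log10 p of 137.9 and 136.9, and lay 38020 and 53320 bp from the gene. LOC5573660, the other gene that contains a desert, also held the peak ranked 10th, read at 98.03 to 98.06 Mb with a −log10 p of 124.6. Of the 20 peaks, 14 overlapped no gene. Another 3 crossed the end of a protein-coding gene, LOC5570853 (454.74 Mb, −log10 p of 132.8), LOC5564813 (423.64 Mb, 113.5) and LOC5579992 (38.49 Mb, 104.9). Among the 100 strongest peaks, 29 lay at the ends and 20 in the middle. In the strongest decile of chromosome 2 peaks, 21.5% lay at the ends and 21.3% in the middle. Gene spans held the midpoint of 61.6% of the 100 strongest, near the 61.3% of all chromosome 2 peaks, but of only 5 of the 20 strongest. At an end of a protein-coding gene (at least 10% of the peak within 500 bp outside it) were 30 of the 100, against 8.30% of all chromosome 2 peaks.

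Stronger peaks lay more often at the ends of protein-coding genes. Of the weakest decile of peaks 4.04% lay at an end of a protein-coding gene, as did 3.76% of the 2nd, 9.12% of the 8th, 13.4% of the 9th and 23.8% of the strongest (22.6 to 24.9%). The share with its midpoint inside a protein-coding span changed little, lying between 59.0 and 61.5% in the 10 groups. Stronger peaks were also wider, with a median of 676 bp in the weakest decile and 1499 bp in the strongest. The part of width in the shares at gene ends was not tested. The reference table gives no strand, so the start and the end of a gene could not be told apart.

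Seen from the genes, open chromatin lay at an end of 68.4% (67.1 to 69.6%) of 5454 protein-coding genes on chromosome 2, against 65.3% over chromosomes 1 to 3. For lncRNA genes it was 35.0% of 1273 (34.4% over the chromosomes), for tRNA genes 43.5% of 351 (46.5%) and for pseudogenes 23.7% of 82 (24.6%). The windows at protein-coding ends were covered by peaks to 35.9%, or 2.82-fold the share of the whole chromosome. The fold was 2.20 at tRNA genes, 1.31 at lncRNA genes and 0.95 at pseudogenes. Protein-coding genes of the middle had a peak at an end in 74.6% of cases (71.8 to 77.3%), and those of the chromosome ends in 66.6% (63.8 to 69.3%). Genes of the middle were also longer, with a median of 19772 bp against 9735 bp. The share was higher in longer genes, from 55.4% (52.9 to 57.9%) of genes under 2 kb to 84.6% (80.6 to 88.2%) of those of at least 200 kb. Peaks also covered more of the middle, 14.9% against 11.2% of the chromosome ends. The parts of gene length and of this coverage in the difference by position were not tested. For lncRNA genes the shares were 37.2% (32.0 to 42.9%) in the middle and 35.8% (29.1 to 42.5%) at the ends, within each other's intervals.

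**Figure D5:**
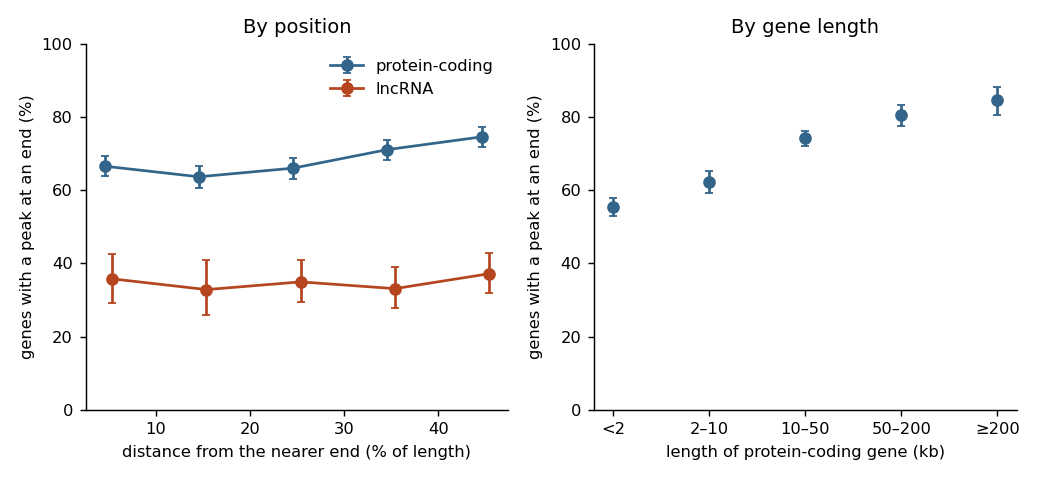
Share of chromosome 2 genes with a peak at either end (y axes, percent, exact 95% binomial intervals) against distance from the nearer chromosome end (left, protein-coding and lncRNA genes) and against gene length (right, protein-coding genes). The share of protein-coding genes is 66.6% at the chromosome ends and 74.6% in the middle, and ranges from 55.4% for the shortest to 84.6% for the longest genes.

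Genes for tRNAs, the adaptors that bring amino acids to the ribosome, often stand in tandem groups and differed widely by kind. Those for tyrosine with anticodon GUA had a peak at an end in 20 of 24 cases, those for valine with AAC in 14 of 20 and those for histidine with GUG in 11 of 16. Those for serine with AGA had one in 5.55 of 42 on average over the readings, and those for alanine with AGC in 4.55 of 35. A group of 10 tyrosine genes in 21.7 kb at 390.11 Mb had peaks at all 10, with the midpoints of 4 peaks inside the group. These 10 are among the 20 tyrosine genes with a peak, so that count rests in part on shared signal. A group of 10 at 74.80 Mb, 9 of them for lysine with anticodon CUU, had a peak at none. A group of 10 at 352.55 Mb, with 5 histidine and 5 valine genes, had a peak at an end of 9, with the midpoint of 1 peak inside the group, so the counts of both kinds rest in part on shared signal there. A group of 11 at 191.42 Mb, 10 of them for methionine, had peaks at 2 genes. Tandem copies can be near-identical, and reads of low mapping quality were removed by the authors, so a gene without a peak is not shown to be closed, and the part of mapping in these counts was not tested. Neighbouring genes can also share 1 peak.

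Peaks on chromosome 2 that the study matched to enhancers tested in transgenic reporter assays numbered 4, and they were of unequal strength. At 112.93 Mb the peak crossed an end of LOC5571690 and had a −log10 p of 26.1, above 96.0% of chromosome 2 peaks. At 190.76 Mb it crossed an end of LOC5575611, with 23.9, above 95.2%. At 22.09 Mb it lay within LOC5571276, with 13.6, above 83.9%. At 377.44 Mb it lay within LOC5565327, 42289 bp from the nearer end, with 9.69, above 68.1%. The strongest of them ranked 2118th on the chromosome. The position read for the peak at 112.93 Mb differed from the study's printed one in its start. That read for the peak at 22.09 Mb differed in its end. Neither difference moved a peak across a gene limit. For the peak at 22.09 Mb, the neighbouring genes did not agree between the assemblies in the study's own check. The study listed the peaks that disagreed. It put most such disagreements down to differences between the assemblies, without showing the data or saying which of them it meant. The match of this peak to the tested enhancer thus rests on shared reads and not on agreeing genes.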

How the data were processed

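Reads were trimmed by the authors with Trimmomatic and aligned to AaegL5 with BWA, and SAMtools removed those with a mapping quality under 10. MACS2 then called peaks on the 3 replicates together, with a p of 0.01, an extension of 550 bp and no control. Versions: not given in the sources used here. Without a control, MACS2 takes the local background from the same reads around each candidate peak, so that strength and spacing depend on nearby signal, and copy number is not separated from openness. For each peak the authors deposited a fold enrichment (a ratio), a −log10 p-value, a −log10 q-value and a score. The −log10 p-value deposited by the authors measures strength here. The score and −log10 q served to read it, and the fold enrichment served as an alternative. Values per replicate were not analysed here, and 0 columns of other samples were found.

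Each 5 was read as 3 or 5 where peaks stayed in order, at least 99 bp apart, 550 to 7000 bp wide and holding their summit. Readings with commoner widths had more weight, and 20 were drawn (random seed 20). The −log10 p was read from the curve of p against q with a tolerance of 0.1, and was open by at most 0.1 for 99.1% of peaks. The reading was tested on simulated data, made by replacing the digit in the AaegL3 list, where it returned too many gaps of 100 kb and over. The length of a chromosome is the end of its last peak or gene.

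The 7160 chromosome 2 genes came from a RefSeq table of AaegL5.0 without strand, exons or descriptions. The planned counts by gene family and the promoter sequences could therefore not be made, and windows of 500 bp outside both gene ends were used. Densities were compared with exact binomial tests, shares with Fisher's exact test, both two-sided, with Benjamini-Hochberg adjustment over the 2 other chromosomes and exact 95% intervals. Named genes are those at the 20 strongest peaks, the clusters with most peaks, the longest gaps and the reporter-tested peaks. Those at tRNA groups, the longest run and the dense windows were chosen after their values were seen. Members, lists and tests were chosen with earlier results of these data known. Work was done in Python 3.11.15 with numpy 2.4.6, scipy 1.17.1, pandas 2.3.3 and matplotlib 3.10.9.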

Additional observations from a re-analysis of the deposited data

How the results depend on the processing

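The middle kept its excess of peaks over the ends and its lower share of strong peaks under the alternatives tried for them that changed the peaks or the measure (stricter −log10 p, the strongest 5%, a wider middle and ends, bases covered, fold enrichment as strength), as did peak density and the share of strong peaks against chromosomes 1 and 3 as far as these alternatives applied. Spacing weights returned the same counts, and the filter on q was no test within chromosome 2, since it removed 0 of its peaks. The gradient against the other chromosomes had no alternative, and the comparison of deserts with chromosome 3 did not pass at 50 kb (ratio 0.84, adjusted p = 0.061, exact binomial test). Of 40 alternatives, 24, those that could not change a value included, left it on the same side and within its limits and 16 moved it. Spacing, clusters, deserts and gene ends depend on their definitions. The median gap of 5858 bp became 7124 bp with a −log10 p of at least 5, 5695 bp with all readings weighted alike and 7097 bp from summit to summit. The 10.95 clusters became 5.8 at a −log10 p of at least 5, 1.3 at up to 1 kb, 225.3 at up to 4 kb, 0 with at least 10 peaks and 16.9 with all readings alike. The 13 deserts became 24 at a −log10 p of at least 5, 286 with gaps of 50 kb and 1 with 200 kb. The share of protein-coding genes with a peak at an end, 68.4%, became 64.3% at a −log10 p of at least 5, 79.3% with windows of 2500 bp, 73.5% with any overlap, 10.4% with at least 50% of the peak inside and 27.8% with the summit in the window.

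No paired analysis was possible because the list pools the 3 replicates of 1 group, so no replicate was left out either. The depth behind single peaks is not in the list, and a stretch without a peak is one where none was called at this depth. Gaps rest on readings of positions, and a count of deserts is given with its range over the readings for that reason. That range does not cover the excess of such gaps that the trial on the AaegL3 list returned.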
